A study of Mus musculus with 9 samples.

Results

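Collagens are structural proteins of the extracellular matrix, and each molecule is a rope of 3 chains. Depending on the type, the chains of a molecule come from 1 gene or from different genes. The collagen genes were taken as every gene of the count table whose mouse symbol has the form Col, a number, the letter a and a number, which gave 44 of 49315 genes. They were compared between whole brains of 5 young male mice (labelled as 3 months of age, and as 3 or 4 months in the methods) and 4 old male mice (33 months). All were wild-type C57BL/6J animals with unlimited access to food and no treatment, each library came from the brain of 1 mouse, and polyA-selected RNA was sequenced. The study measured transcripts to ask how far they account for age-related changes of brain proteins and their modifications. A further old mouse, replicate 2, was not analysed here.

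Fibrillar collagens (types I, II, III, V, XI, XXIV and XXVII) assemble into the cross-striated fibrils of connective tissue. In the brain, types I and III lie mainly in the meninges and in the walls of larger vessels. Type IV collagen forms the network of basement membranes around brain capillaries and beneath the pial surface, where types XV and XVIII also lie. FACIT collagens (fibril-associated collagens with interrupted helices) bind to the surface of fibrils, type VI collagen forms beaded microfilaments near cells, and transmembrane collagens stay anchored in the plasma membrane of the cell that makes them. By this classification, the 44 genes comprised 11 fibrillar collagens, 8 collagens of basement membranes and 25 others. The others were 9 FACIT, 6 type VI and 4 transmembrane collagens and 6 genes of short chain, anchoring and remaining types.

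Of the 44 genes, 43 passed the filter on low counts and were tested. Col10a1, a collagen of growing cartilage, had 3 to 9 counts per library and was not tested. With edgeR's quasi-likelihood test and Benjamini-Hochberg adjustment over all 18492 genes tested, 6 of the 43 collagen genes fell with age at an adjusted p under 0.05. These were the fibrillar Col3a1 and Col27a1, the basement membrane gene Col15a1, the FACIT Col20a1, the transmembrane Col25a1 and Col26a1, a collagen of the remaining types. Thus, 14.0% of the tested collagen genes fell, and 4.89% of all genes tested did. The type VI chain Col6a2 rose, which is 1 gene or 2.33%, beside 6.09% of all genes. Only Col3a1 among the 43 also passed the absolute log2 fold change of 0.58 that the study used as its second threshold, which is 2.33% of them beside 2.50% of all genes. The median log2 fold change, old over young, was -0.0050 for the 43 collagen genes, with 21 above and 22 below 0, beside -9.2e-05 for all genes tested.

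**Figure D1:**
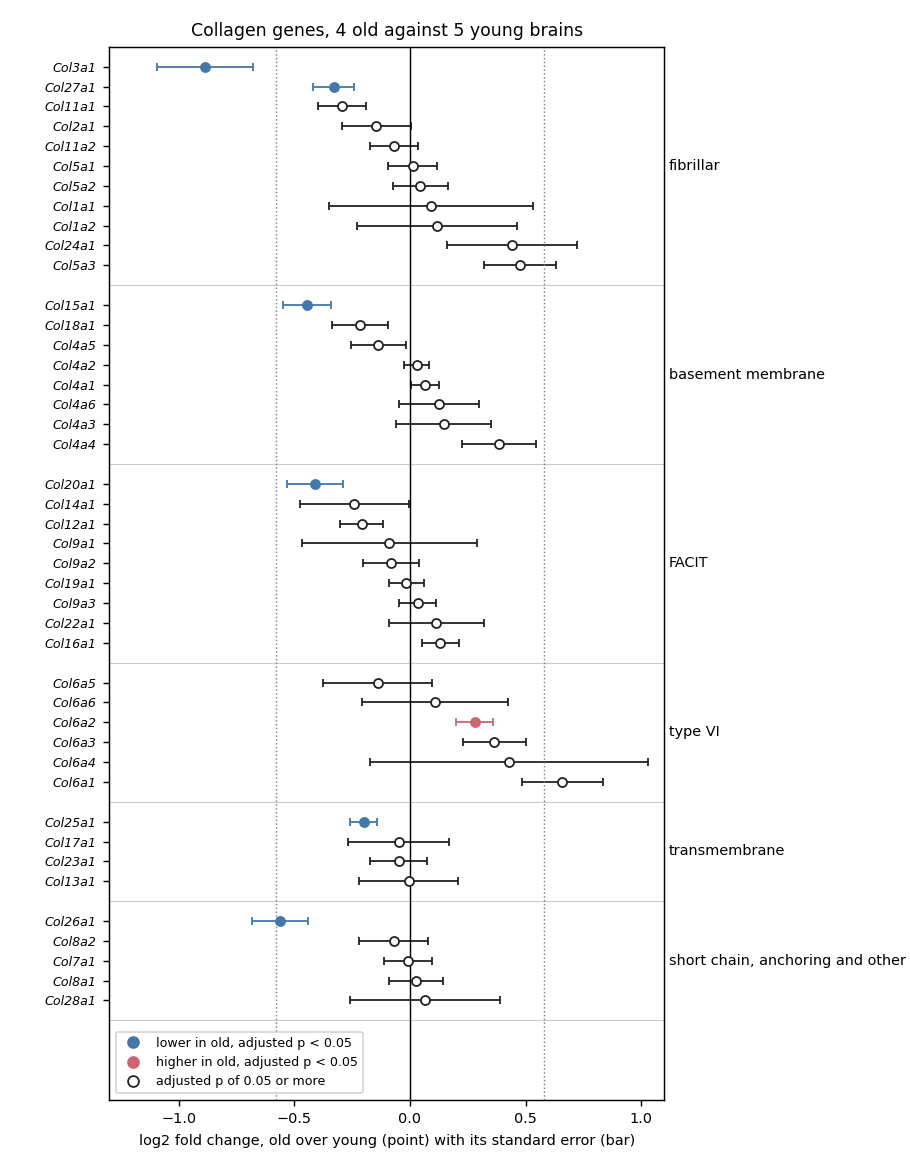
Log2 fold change (x axis, old over young, 4 against 5 brains) of the 43 tested collagen genes by class, with bars for the standard error and dotted lines at 0.58 on either side of 0. The 6 filled points left of 0 fell, the 1 filled point right of 0 rose (Col6a2), and Col6a1 lies farther right at 0.66 with an open symbol because its adjusted p was 0.0548.

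One old library stood apart in transcripts that bear on collagens. In old replicate 4, the summed level of 5 skeletal muscle markers was 37.4 CPM (counts scaled to a common library size), against 4.39 to 9.76 in the young and 4.44 to 9.40 in the other old brains. The same library had the highest sum of 5 blood markers, 409 CPM against 86.1 to 116 in the young and 128 to 262 in the other old brains. It also held 29 counts of Mmp8 and 26 of Mmp13, which encode collagenases, and 25 of Ibsp, a bone matrix gene, whereas no other library had more than 6 of any of them. The osteocalcin genes Bglap and Bglap2 had at most 4 counts in any library. The 3 blood genes Hbb-bs, Hba-a1 and Alas2 rose with age. Of 6 tested bone and cartilage markers, Dmp1 rose, which is 16.7% beside 6.09% of all genes. None of these markers fell, and 4 had fold changes below 0 (median -0.21 on the log2 scale). For the collagen genes and the named pathway genes, calls that changed without old replicate 4 are given both ways below. Marker calls are given with all brains only. Old replicate 4 was the highest brain for Hbb-bs, Hba-a1 and Alas2 (196, 124 and 16.5 CPM). Young replicate 4 also stood apart, with 514 CPM of the astrocyte filament gene Gfap against 191 to 221 CPM in the other young brains, and a microglia marker sum of 262 CPM against 182 to 197 CPM. Without young replicate 4, Col20a1, Col25a1 and Col6a2 lost their calls (log2 fold changes -0.40, -0.20 and 0.25, edgeR adjusted p = 0.0576, 0.0550 and 0.0645). Markers of neurons, astrocytes and oligodendrocytes were abundant in all 9 libraries, with sums of at least 5790, 3340 and 6090 CPM, respectively. Of the oligodendrocyte markers, Mbp and Mobp rose and Mog fell. In bulk tissue, fewer cells of a type and less RNA per cell cannot be told apart.

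Levels were compared between genes per kilobase of exon, since longer genes collect more reads. The collagen genes spanned a 124-fold range of mean CPM per kilobase. Col6a1 had the highest mean level, followed by Col4a2, Col4a1, Col9a3 and Col11a2, and Col10a1 had the lowest. In the young brains, Col6a1 measured 10.9 ± 1.73 CPM per kilobase (SD, n = 5) and Col4a2 measured 9.24 ± 0.218, so these neighbours lay within the spread of Col6a1. Col4a1 (6.28 ± 0.377) and Col9a3 (5.96 ± 0.259) likewise lay within their spread of each other. The sum over the 44 collagen genes was 86.5 ± 3.57 CPM per kilobase in young and 91.8 ± 4.84 in old brains (SD, n = 5 and 4), with overlapping ranges of 81.7 to 90.0 and 86.1 to 98.0.

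**Figure D2:**
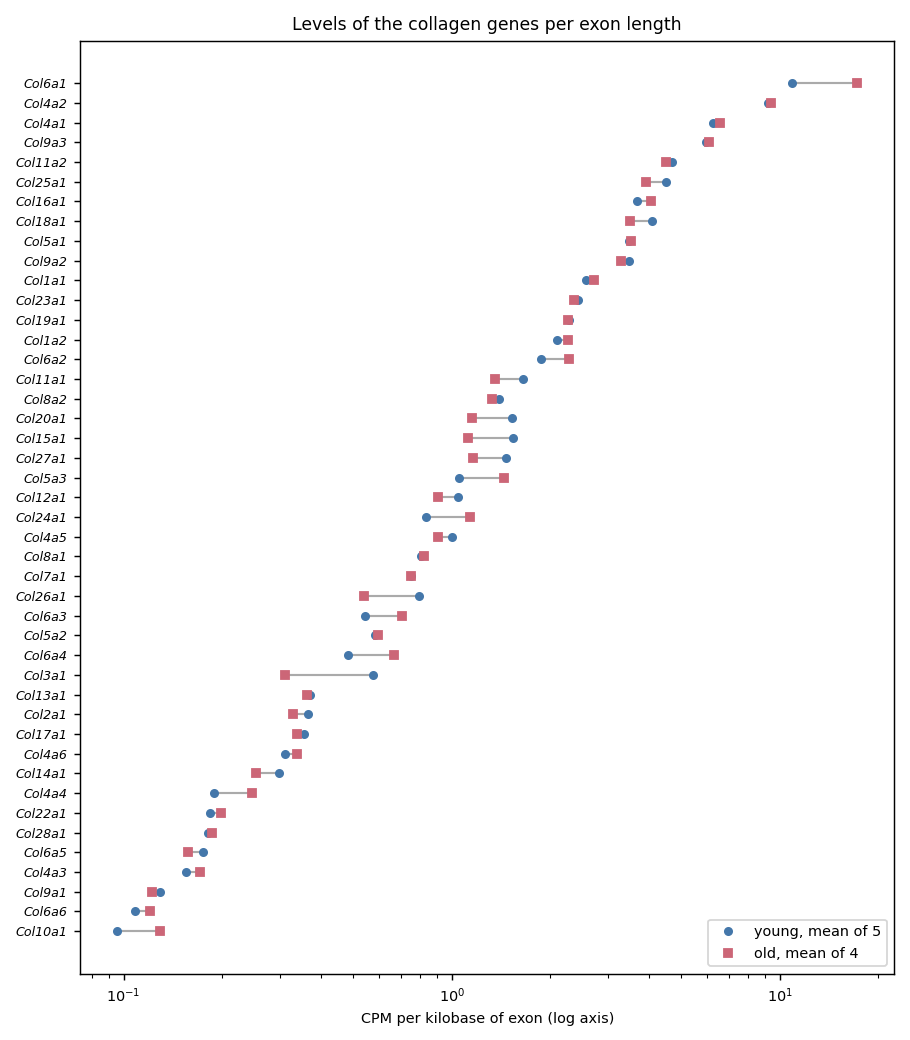
Mean CPM per kilobase of exon (x axis, log scale) of the 44 collagen genes in 5 young and 4 old brains. Col6a1 stands at the top with 10.9 in young and 17.3 in old brains, and Col3a1 shows a wide gap between the ages.

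For the genes that changed, the 150 bases before the start site are shown, as the proximal promoter of the members that moved. They come from RefSeq on GRCm38.p6, whose table matched 35 of the 44 genes in 38 windows. Col26a1 is not among them. RefSeq's start can differ from the outermost start in the GENCODE annotation used for gene positions. The windows of Col25a1 and Col27a1 lie inside the genes of that annotation, whose outermost starts are chr3:130131501 and chr4:63214004. Each is written 5′ to 3′ on the gene's strand, with capitals for the motif CCAAT, for the GC box GGGCGG or for the TATA box motif TATAAA, searched on both strands. For Col6a2, the window of the downstream of its 2 start sites is shown, which also lies inside the gene (outermost start chr10:76623630).
Col3a1, chr1:45311388-45311537, plus strand: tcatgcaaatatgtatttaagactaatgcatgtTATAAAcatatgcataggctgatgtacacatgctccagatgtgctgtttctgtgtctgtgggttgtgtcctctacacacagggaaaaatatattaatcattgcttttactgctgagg
Col15a1, chr4:47207862-47208011, plus strand: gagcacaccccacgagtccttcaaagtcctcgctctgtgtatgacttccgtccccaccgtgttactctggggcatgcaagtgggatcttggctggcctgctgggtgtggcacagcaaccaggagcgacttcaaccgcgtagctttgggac
Col27a1, chr4:63215262-63215411, plus strand: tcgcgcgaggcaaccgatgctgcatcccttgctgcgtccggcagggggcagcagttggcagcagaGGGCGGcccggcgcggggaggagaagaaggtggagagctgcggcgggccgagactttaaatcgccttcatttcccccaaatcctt
Col20a1, chr2:180986385-180986534, plus strand: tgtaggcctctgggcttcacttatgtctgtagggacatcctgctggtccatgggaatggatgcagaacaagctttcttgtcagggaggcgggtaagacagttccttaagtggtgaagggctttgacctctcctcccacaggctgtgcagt
Col25a1, chr3:130180695-130180844, plus strand: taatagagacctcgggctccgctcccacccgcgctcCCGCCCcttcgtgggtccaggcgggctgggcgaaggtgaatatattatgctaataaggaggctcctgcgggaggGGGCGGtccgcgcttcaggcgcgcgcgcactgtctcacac
Col6a2, chr10:76623405-76623554, minus strand: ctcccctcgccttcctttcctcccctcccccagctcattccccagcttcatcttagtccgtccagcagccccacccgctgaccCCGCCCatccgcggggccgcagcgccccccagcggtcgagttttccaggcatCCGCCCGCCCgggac
Among these windows, Col3a1 held TATAAA, 117 bases before its start, Col25a1, Col27a1 and Col6a2 held GGGCGG, and Col15a1 and Col20a1 held none of the motifs. For Col6a2, this holds for the window shown. The 150 bases before its other start site (chr10:76623631-76623780) held none of the motifs, and the nearest GGGCGG lay 175 bases before that start. Over the full 250 bases upstream, CCAAT was present in 34.2% of the 38 collagen windows and in 33.8% of all 32851 windows. GGGCGG was present in 57.9% and 32.7%, and TATAAA in 13.2% and 12.4%. These matches describe letters only.

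Among the fibrillar collagens, 2 of 11 fell and none rose, which is 18.2% lower beside 4.89% of all genes. Of the 11 fold changes, 6 were above 0, with a median of 0.01 on the log2 scale. Col3a1 (ENSMUSG00000026043, chr1:45311538-45349706, plus strand, GRCm38) encodes the single chain of type III collagen, which forms fine fibrils in vessel walls and meninges. Its level was 6.38, 5.03, 5.50, 4.88 and 6.55 CPM in young replicates 1 to 5 and 1.70, 2.54, 4.27 and 3.70 CPM in old replicates 1, 3, 4 and 5. Every old brain lay below every young brain. Col3a1 fell by 45.9%, a log2 fold change of -0.89 ± 0.21 (SE, edgeR adjusted p = 0.0136). Old replicate 4 was the highest of the old brains, and without it the log2 fold change was -1.10 (edgeR adjusted p = 0.00335). Its exons overlap those of the predicted gene Gm47302 on the same strand.

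Col27a1 (ENSMUSG00000045672, chr4:63214004-63334991, plus strand) encodes a fibrillar collagen of cartilage with a short helix. Young brains measured 20.2, 19.4, 21.4, 17.4 and 16.7 CPM, and old brains 14.2, 17.8, 15.1 and 13.6 CPM. Thus, 3 of 4 old brains lay below all young brains and old replicate 3 lay within their range. Col27a1 fell by 20.5%, with a log2 fold change of -0.33 ± 0.089 (SE, edgeR adjusted p = 0.0230). This call was lost when any of 4 brains was left out, among 9 such fits.

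Collagen I, the main fibrillar collagen of bone, tendon and meninges, is built from the chains of Col1a1 and Col1a2. Col1a1 measured 18.8, 17.0, 15.2, 15.6 and 17.5 CPM in the young brains and 8.02, 13.0, 37.8 and 12.4 CPM in old replicates 1, 3, 4 and 5. Col1a2 measured 23.7, 26.4, 24.5, 24.8 and 30.7 CPM in the young and 15.1, 21.6, 51.3 and 24.2 CPM in the old brains. Old replicate 4 was above every young brain for both genes. The other 3 old brains were below every young brain for Col1a1, and 2 of them were for Col1a2. With all brains, neither passed the test (log2 fold change 0.09 ± 0.44, edgeR adjusted p = 0.925 for Col1a1, and 0.12 ± 0.34, adjusted p = 0.874 for Col1a2). Without old replicate 4, Col1a1 was lower in old brains (log2 fold change -0.60, edgeR adjusted p = 0.0134), whereas Col1a2 did not pass (-0.36, adjusted p = 0.163). The same library carried the high muscle and blood marker sums and the Mmp8, Mmp13 and Ibsp counts, and their part in the Col1a1 and Col1a2 values was not tested.

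**Figure D3:**
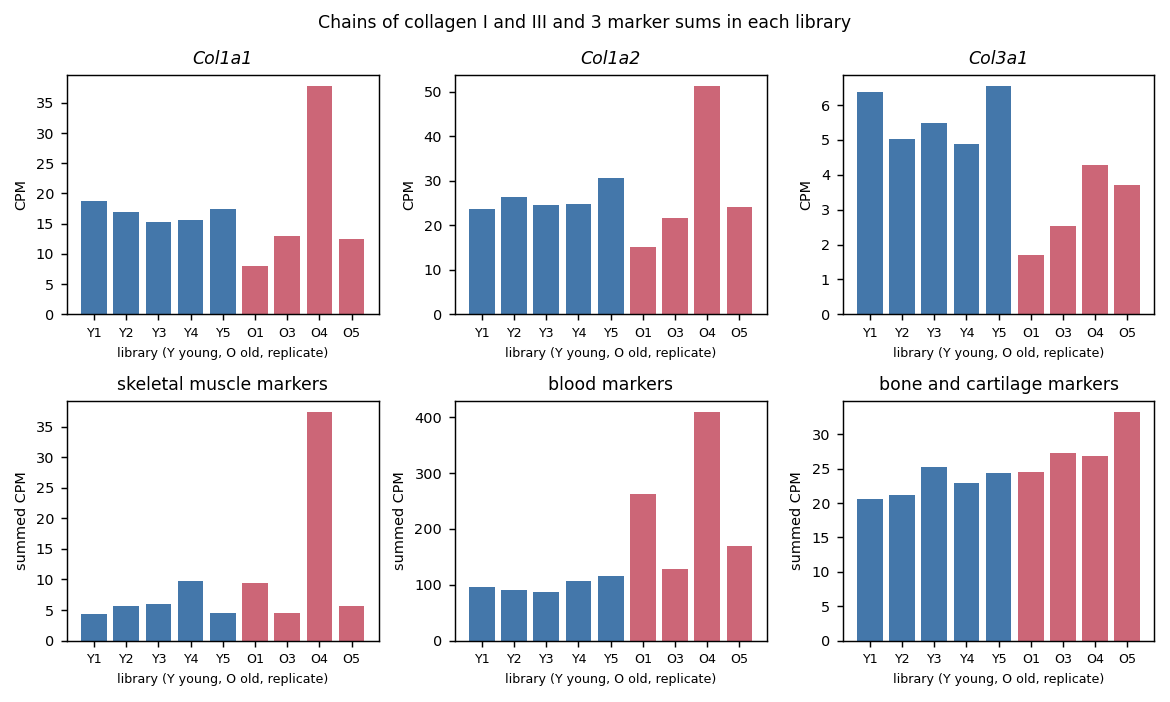
CPM of Col1a1, Col1a2 and Col3a1 (top) and summed CPM of skeletal muscle, blood and bone and cartilage markers (bottom) in each library, bars from 0. Old replicate 4 holds the highest bar for Col1a1 (37.8), Col1a2 (51.3), muscle (37.4) and blood (409), and not for Col3a1 or the bone and cartilage sum.

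Since Col3a1 and Col1a2 are made together by fibroblasts, their count ratio was taken within each library. The ratio was 0.269, 0.191, 0.224, 0.196 and 0.213 in the young brains and 0.113, 0.118, 0.0832 and 0.153 in the old brains. Every old brain lay below every young brain. Old replicate 4 had the lowest ratio with the highest Col1a2 of all brains (51.3 CPM), while its Col3a1 (4.27 CPM) was the highest of the old brains. The mean ratios were 0.219 ± 0.0312 and 0.117 ± 0.0284 (SD, n = 5 and 4). The 2-sided exact permutation test gave p = 0.00794, the smallest that 126 splits allow, and 0.0635 after Benjamini-Hochberg adjustment over the 8 ratios computed, which were chosen after the values were seen. The 13 markers of leptomeningeal and perivascular fibroblasts summed to 207 to 243 CPM in young and 205 to 289 CPM in old brains. Of these markers, 1 rose (Mgp, log2 fold change 0.55), none fell, and 11 had fold changes above 0. Their part in the fall of Col3a1 was not tested.

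The remaining fibrillar genes did not pass the test. Col5a3, a minor chain of type V collagen that regulates fibril width, measured 6.43, 6.20, 8.52, 7.44 and 7.17 CPM in young and 11.5, 8.74, 12.4 and 6.87 CPM in old brains (log2 fold change 0.48 ± 0.15, edgeR adjusted p = 0.0635). Col11a1, a chain of the type XI collagen at the core of cartilage fibrils, had a log2 fold change of -0.29 ± 0.10 (edgeR adjusted p = 0.0852). Col24a1 had a log2 fold change of 0.44, and old replicate 5 was its highest brain with 14.1 CPM, against 4.76 to 9.24 CPM in the other 8. The most abundant fibrillar genes per length, Col11a2 and Col5a1, were near 0. Col11a2 measured 33.3, 32.4, 36.8, 26.7 and 32.7 CPM in young and 30.4, 37.0, 30.1 and 26.0 CPM in old brains (log2 fold change -0.07). Col5a1 measured 34.9, 26.6, 31.4, 27.4 and 27.4 CPM in young and 32.2, 34.1, 28.8 and 24.3 CPM in old brains (log2 fold change 0.01). The ages overlapped for these genes. Col2a1, the main cartilage collagen, and Col5a2 had log2 fold changes of -0.15 and 0.04.

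In basement membranes, the fall lay in Col15a1, while the abundant type IV chains did not pass the test. Of the 8 genes, 1 fell and none rose, which is 12.5% lower beside 4.89% of all genes, and the median log2 fold change was 0.05. Col15a1 (ENSMUSG00000028339, chr4:47208161-47313167, plus strand) encodes a proteoglycan collagen at the border of basement membranes and the fibrils next to them. It measured 9.83, 9.46, 10.9, 8.41 and 10.1 CPM in young and 7.38, 7.97, 7.22 and 5.99 CPM in old brains. The groups did not overlap. Col15a1 fell by 26.5%, with a log2 fold change of -0.44 ± 0.10 (SE, edgeR adjusted p = 0.0105), and the call was kept in all 9 fits that left out 1 brain. Its exons overlap Gm12426 on the opposite strand.

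Col18a1, the relative of Col15a1 whose end fragment is endostatin, measured 31.1, 23.8, 30.7, 28.7 and 28.6 CPM in young and 27.4, 20.8, 29.5 and 20.2 CPM in old brains (log2 fold change -0.22 ± 0.12, edgeR adjusted p = 0.311). Col4a1 and Col4a2, which encode the chains of the common type IV network of vessels, lie head to head on chromosome 8, and their first exons overlap on opposite strands. Col4a1 measured 47.8, 48.5, 49.9, 45.6 and 42.7 CPM in young and 49.0, 55.3, 47.5 and 44.8 CPM in old brains. Col4a2 measured 61.3, 60.8, 63.5, 60.6 and 59.6 CPM in young and 68.6, 66.2, 57.8 and 56.9 CPM in old brains. The old brains lay within or above the young range for Col4a1 and on either side of it for Col4a2, with log2 fold changes of 0.07 ± 0.060 and 0.03 ± 0.054 (SE). The Col4a1 to Col4a2 ratio was 0.766 ± 0.0326 in young and 0.790 ± 0.0541 in old brains (SD, 2-sided exact permutation p = 0.468, adjusted 0.562).

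The minor type IV chains had lower levels than Col4a1 and Col4a2 (6.42 and 9.32 CPM per kilobase over all brains). Col4a5 had 0.961 CPM per kilobase, and Col4a3, Col4a4 and Col4a6 had 0.162, 0.214 and 0.323. Col4a3 and Col4a4, which pair with Col4a5 in the kidney filter, had log2 fold changes of 0.15 and 0.39 (edgeR adjusted p = 0.704 and 0.129). Col4a5 and Col4a6 had values of -0.14 and 0.13. Among the 10 endothelial markers, 5 rose (Ly6c1, Pecam1, Abcb1a, Cdh5 and Flt1), where 6.09% of all genes rose, and none passed the test for a fall. The list was split, with 4 of the 10 fold changes below 0. Itm2a (log2 fold change -0.43, edgeR adjusted p = 0.0670) was lower in every old brain than in any young brain. Kdr had -0.30 (adjusted p = 0.0772). The 10 markers summed to 320 to 345 CPM in young and 357 to 389 CPM in old brains. Of 10 markers of pericytes and smooth muscle, 2 rose (Abcc9 and Kcnj8), and none fell. The part of these cells in the basement membrane values was not tested.

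Type VI collagen was the class with the highest median, 0.32 on the log2 scale, and 5 of its 6 genes had fold changes above 0. Its core molecule joins the products of Col6a1, Col6a2 and Col6a3. Col6a2 (ENSMUSG00000020241, chr10:76595762-76623630, minus strand) measured 17.4, 16.3, 14.8, 14.6 and 14.8 CPM in young and 20.2, 20.7, 18.4 and 16.4 CPM in old brains. Old replicates 1, 3 and 4 lay above all young brains and old replicate 5 lay within their range. Col6a2 rose by 21.4%, with a log2 fold change of 0.28 ± 0.080 (SE, edgeR adjusted p = 0.0317). This call was lost in 5 of the 9 fits that left out 1 brain.

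Col6a1 (ENSMUSG00000001119, chr10:76708792-76726168, minus strand) had the largest fold change above 0 among the tested collagens, and its call changed with the setting and the brains used. It measured 52.6, 57.7, 46.0, 44.2 and 38.2 CPM in young and 82.1, 81.4, 52.9 and 85.9 CPM in old replicates 1, 3, 4 and 5. Thus, 3 of 4 old brains were above all young brains, and old replicate 4 lay within their range. The log2 fold change was 0.66 ± 0.18 (SE, edgeR adjusted p = 0.0548). Without the robust option of edgeR, the adjusted p was 0.0066, and with DESeq2's Wald test it was 0.00466. It also passed on normalized counts (adjusted p = 0.00819) and at a minimum of 1 CPM in 4 samples (0.0493). Without old replicate 4, the log2 fold change was 0.80 (edgeR adjusted p = 0.00434), and without young replicate 2 it was 0.74 (adjusted p = 0.0494). These were the only 6 of 21 alternatives that called Col6a1, and 2 of them left out 1 brain. Col6a1 did not pass with the replicate block (edgeR adjusted p = 0.0807) or with GC and length offsets (0.0524). Without young replicate 4, it did not pass either (adjusted p = 0.106). Col6a3 had 7.38, 11.1, 8.92 and 6.34 CPM in old brains against 6.14 to 7.10 CPM in the young, and did not pass (log2 fold change 0.37 ± 0.13, edgeR adjusted p = 0.0911).

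The type VI share of the collagen sum per kilobase was 16.3% ± 1.93 in young and 23.1% ± 4.25 in old brains (SD, n = 5 and 4). By library it was 17.8%, 18.5%, 14.9%, 16.1% and 13.9% in the young and 25.2%, 23.7%, 17.0% and 26.6% in the old brains. Old replicate 4, the lowest, again lay among the young brains. Most of this share was Col6a1, which did not pass the test, so the share is not separate evidence on the class. Col6a1 measured 10.9 CPM per kilobase in young and 17.3 in old brains, and Col6a2, the next type VI gene, 1.87 and 2.27. The ratio of Col6a1 to Col6a2 counts was 3.06 ± 0.336 in young and 4.03 ± 0.974 in old brains (2-sided exact permutation p = 0.0714, adjusted 0.286 over the 8 ratios). The ratio of Col6a3 to Col6a2 was 0.422 ± 0.05 and 0.444 ± 0.0820 (exact permutation p = 0.643, adjusted 0.643). The alternative chains Col6a4, Col6a5 and Col6a6 had 0.564, 0.167 and 0.114 CPM per kilobase over all brains, beside 0.616 for Col6a3. The log2 fold changes of these alternative chains, 0.43, -0.14 and 0.11, carried standard errors of 0.60, 0.23 and 0.32.

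**Figure D4:**
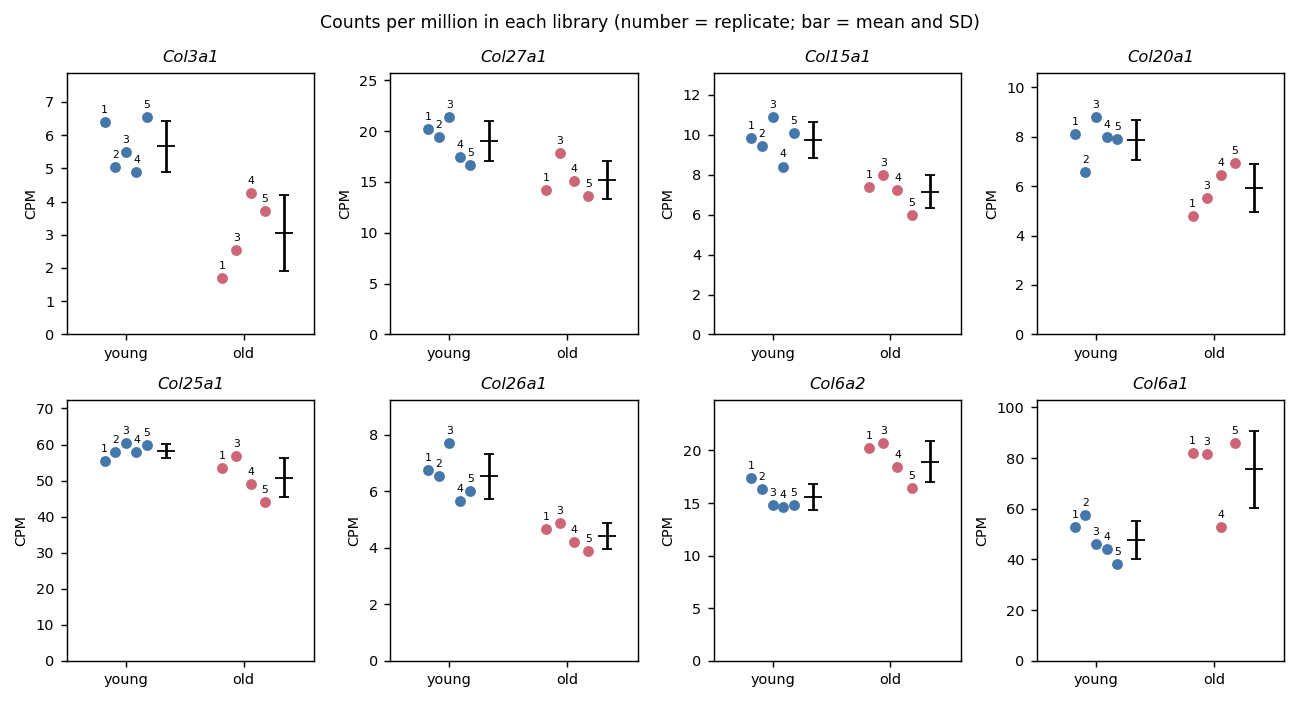
CPM (y axis from 0) of the 7 collagen genes that passed the test and of Col6a1 in each brain, with the replicate number beside each point and the mean and SD as a bar. The groups do not overlap for Col3a1, Col15a1 and Col26a1, and old replicate 4 lies among the young brains for Col6a1.

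Of the 9 FACIT collagens, 1 fell and none rose, which is 11.1% lower beside 4.89% of all genes. Fold changes were above 0 for 3 of the 9 (median log2 fold change -0.08). Col20a1 (ENSMUSG00000016356, chr2:180986535-181018363, plus strand) measured 8.10, 6.58, 8.80, 7.97 and 7.91 CPM in young and 4.78, 5.50, 6.46 and 6.93 CPM in old brains. Only old replicate 5 reached the range of the young brains. Col20a1 fell by 24.7%, with a log2 fold change of -0.41 ± 0.12 (SE, edgeR adjusted p = 0.0381). This call was lost in 6 of the 9 fits that left out 1 brain. Its exons overlap those of BX649560.1 on the same strand.

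The abundant FACIT genes did not pass. Col9a3, a chain of type IX collagen, which coats cartilage fibrils, measured 23.4, 22.2, 24.3, 21.7 and 23.3 CPM in young and 24.5, 24.5, 26.2 and 18.7 CPM in old brains (log2 fold change 0.03). Col16a1 measured 25.8, 23.1, 26.0, 24.7 and 24.6 CPM in young and 25.6, 31.0, 29.8 and 22.7 CPM in old brains (log2 fold change 0.13). In both, old replicate 5 was the lowest of all brains. The type IX partner Col9a2 had a log2 fold change of -0.08, and its ratio to Col9a3 was 0.467 ± 0.0693 in young and 0.434 ± 0.0582 in old brains (exact permutation p = 0.492, adjusted 0.562). Col12a1 (-0.21, edgeR adjusted p = 0.169), Col14a1 (-0.24), Col9a1 (-0.09), Col19a1 (-0.02) and Col22a1 (0.11) did not pass the test.

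All 4 transmembrane collagens had log2 fold changes below 0, and 1 fell, which is 25.0% beside 4.89% of all genes. Col25a1 (ENSMUSG00000058897, chr3:130131501-130599877, plus strand) is made by neurons, and a fragment of its protein is found in amyloid plaques. It measured 55.5, 58, 60.4, 57.8 and 59.9 CPM in young and 53.4, 56.7, 49.1 and 44.1 CPM in old brains. Old replicate 3 was the only old brain within the young range. Col25a1 fell by 12.9%, with a log2 fold change of -0.20 ± 0.060 (SE, edgeR adjusted p = 0.0395). This call was lost without the robust option (adjusted p = 0.0521) and in 6 of the 9 fits that left out 1 brain, among them that without old replicate 4 (log2 fold change -0.18, edgeR adjusted p = 0.0980). Of 8 neuron markers, Syp and Stmn2 fell and none rose, which is 25.0% lower beside 4.89% of all genes. The 8 markers summed to 5870 to 6350 CPM in young and 5790 to 6260 CPM in old brains, and their part in the fall of Col25a1 was not tested. Col23a1 measured 12.8, 17.4, 12.6, 12.3 and 14.5 CPM in young and 11.3, 15.7, 11.8 and 15.3 CPM in old brains (log2 fold change -0.05). Col13a1 and Col17a1 had log2 fold changes of -0.0050 and -0.05.

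In the last class, Col26a1 fell and the other 4 tested genes did not pass. Col26a1 (ENSMUSG00000004415, chr5:136741759-136883209, minus strand) encodes a small secreted collagen. It measured 6.74, 6.53, 7.70, 5.65 and 5.99 CPM in young and 4.67, 4.87, 4.21 and 3.87 CPM in old brains. Every old brain lay below every young brain. Col26a1 fell by 32.3%, with a log2 fold change of -0.56 ± 0.12 (SE, edgeR adjusted p = 0.00656), and the call was kept in all 9 fits that left out 1 brain. Thus, 3 of the 43 tested collagen genes, Col3a1, Col15a1 and Col26a1, had no overlap between the ages, which is 6.98% of them beside 12.6% of all genes tested.

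The short chain collagens Col8a1 and Col8a2 form the lattice of the corneal membrane and vessel walls. Col8a1 measured 5.38, 7.03, 6.80, 6.42 and 5.93 CPM in young and 5.90, 6.70, 7.44 and 5.69 CPM in old brains (log2 fold change 0.03). Col8a2 measured 5.33, 7.19, 5.98, 5.22 and 7.66 CPM in young and 5.21, 6.28, 7.50 and 4.87 CPM in old brains (log2 fold change -0.07). The ages overlapped for both. Col7a1, the anchoring fibril of skin, and Col28a1 had log2 fold changes of -0.0086 and 0.07.

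**Figure D5:**
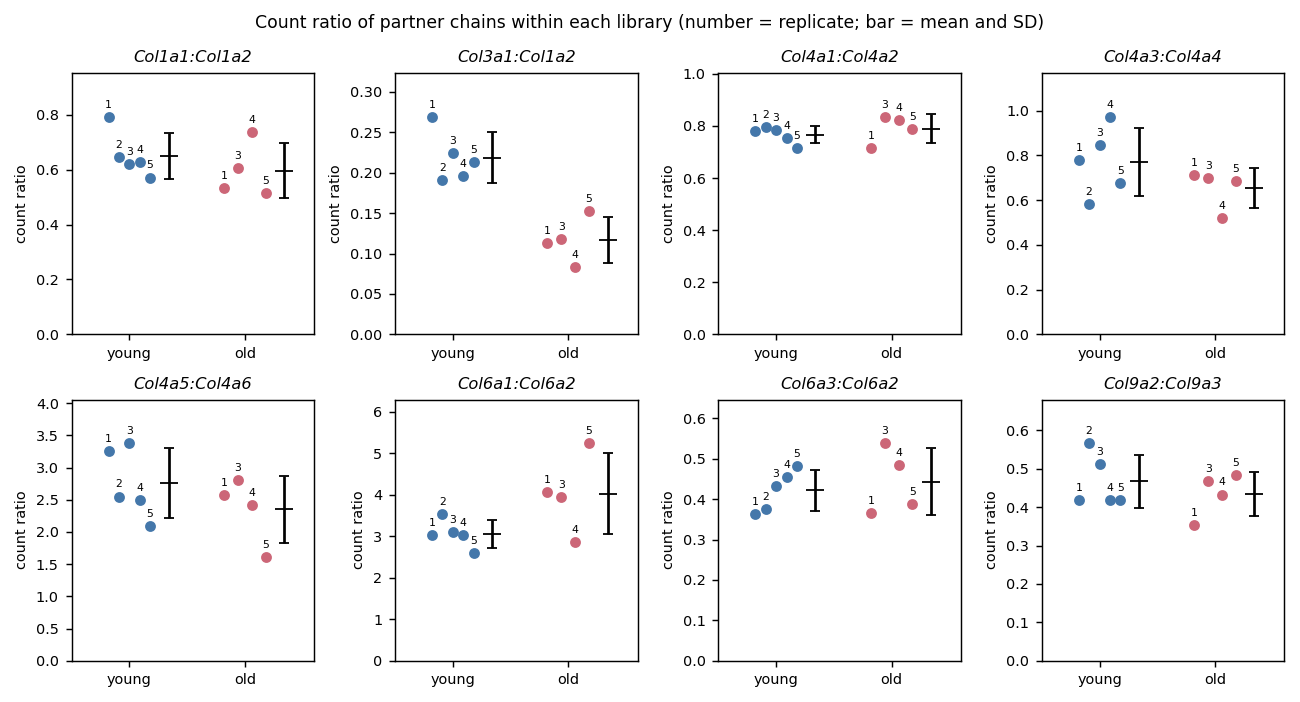
Count ratio of 8 pairs of collagen chains (y axis from 0) in each brain, with the replicate number beside each point and the mean and SD as a bar. For Col3a1 to Col1a2, the old brains (0.0832 to 0.153) lie below the young brains (0.191 to 0.269), and in the other 7 pairs the ages overlap.

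The genes that make, process, break down and bind collagens were followed in 6 lists with 75 tested genes, of which 6 rose and 5 fell. These are 8.0% and 6.67% of them, near the 6.09% and 4.89% of all genes tested. In the secretory pathway, 2 of 18 genes rose and 2 fell. Serpinh1, the collagen chaperone HSP47, measured 22.4, 22.1, 24.4, 25.1 and 25.8 CPM in young and 14.7, 18.3, 20.7 and 19.7 CPM in old brains, with no overlap. Serpinh1 fell with a log2 fold change of -0.39 ± 0.087 (edgeR adjusted p = 0.00899). Plod1, a lysyl hydroxylase that prepares collagens for cross-linking, also fell without overlap (-0.37, edgeR adjusted p = 0.0144). Fkbp10, a prolyl isomerase that assists collagen folding, rose (0.41, edgeR adjusted p = 0.0322, and 0.0623 without young replicate 4), as did Colgalt1, which attaches galactose to hydroxylysine (0.20, adjusted p = 0.0167). The remaining 14 genes, among them those of the prolyl 4-hydroxylase chains, did not pass.

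Among 13 genes of propeptide processing and cross-linking, 1 fell and none rose. This was Adamts3, a procollagen N-proteinase (log2 fold change -0.32, edgeR adjusted p = 0.0193; without old replicate 4, -0.28 and 0.0610), and neither Lox nor its 4 relatives Loxl1 to Loxl4 passed. Of 12 tested genes of collagen breakdown, 1 rose and 2 fell. The membrane-bound metalloproteinase Mmp15 measured 34.2, 35.0, 36.1, 34.2 and 34.8 CPM in young and 20.5, 24.4, 25.7 and 26.4 CPM in old brains, with no overlap. Mmp15 fell with a log2 fold change of -0.53 ± 0.065 (edgeR adjusted p = 7.93e-05). Mmp14, a membrane-bound collagenase, fell as well (-0.46, edgeR adjusted p = 0.00725). Timp3, a matrix-bound inhibitor of metalloproteinases, rose from 80.2 ± 3.19 to 102 ± 10.1 CPM (SD, edgeR adjusted p = 0.00104).

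Of 8 tested collagen receptor genes, 1 rose, Lair1, an inhibitory collagen receptor of leukocytes (log2 fold change 0.51, edgeR adjusted p = 0.0122), and none fell. Its young brains had 6.73 to 7.94 CPM except young replicate 4 with 11.0 CPM, and the old brains had 10.9 to 12 CPM. Without young replicate 4, the log2 fold change was 0.65 (edgeR adjusted p = 0.000164). Of the 6 microglia markers, all with fold changes above 0, Tmem119 rose. Their sum was 182 to 197 CPM in 4 young brains, 262 CPM in young replicate 4 and 249 to 270 CPM in the old brains, and their part in the rise of Lair1 was not tested. Of 16 basement membrane partners, the laminin chains Lamb2 (0.25, edgeR adjusted p = 0.00496) and Lama5 (0.26, adjusted p = 0.0253, and 0.0537 without young replicate 4) rose and none fell. None of the 8 tested small proteoglycans that decorate fibrils passed the test. Among 9 markers of oligodendrocyte precursors and differentiating oligodendrocytes, 3 fell (Gpr17, C1ql1 and Neu4) and none rose. That is 33.3% of them, beside 4.89% of all genes that fell, and Neu4 was near the threshold (edgeR adjusted p = 0.0499). Without passing the test, 3 of the 9 had fold changes above 0 (Bmp4 0.27, Matn4 0.18 and Pdgfra 0.05, log2 scale). The 9 markers summed to 185 to 206 CPM in young and 163 to 179 CPM in old brains, and their part in the collagen values was not tested.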

How the data were processed

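Whole brains of 5 young and 4 old mice were measured by polyA RNA-seq. According to the study's methods, reads were trimmed with Trimmomatic, aligned to GRCm38 with STAR, and uniquely mapped reads on exons were counted with featureCounts. The authors deposited these raw counts per gene without normalization. They also deposited TPM values and normalized counts, a signal for 17994 genes in which each library's counts were divided by a size factor. The methods state counting by strand for strand-specific libraries, and whether these libraries are of that kind is not given in the sources used here, so reads of genes that overlap on opposite strands cannot be told apart. Each table held 1 further per-sample column that matched no sample and was not used.

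Genes were kept with filterByExpr (minimum count 10, minimum total 15), normalized by TMM, and compared with the quasi-likelihood test of edgeR 4.0.16 (R 4.3.3). The robust option was chosen after fits with and without it had been seen, to match earlier processing of these data, and it moved the adjusted p of Col6a1 from 0.0066 to 0.0548 and of Col25a1 from 0.0521 to 0.0395. Library totals were 14229259 to 21150439 counts, and the biological coefficient of variation was 6.71%. Libraries of 1 age differed by more than sampling noise (the smallest chi-square was 4.05 per degree of freedom). Positions, exon lengths and symbols came from GENCODE M21 (GRCm38) and a gene name table, which named 49056 IDs and left 259 unnamed. Marker and pathway lists and the collagen classes were chosen with earlier results of these data known.

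Values in every sample are given for collagen genes with an adjusted p under 0.05, those with an absolute log2 fold change over 0.58, and the 2 with the highest mean TPM per class. For the pathway and marker lists, genes with an adjusted p under 0.05 are named, at most 6 a list. Col1a1, Col1a2, Col5a3, Col6a3, Col18a1, Col24a1 and the ratios were added after their values were seen. Alternatives used DESeq2 1.42.0 and limma 3.58.1, other size factors and filters, the deposited TPM and normalized values, GC and length offsets, a replicate block and each brain left out in turn.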

Additional observations from a re-analysis of the deposited data

Results flagged for a closer look

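Among 86 combinations of a tested collagen gene and an age, 4 had a library farther from the others of its age than Dixon's test allows at the 95% level, and chance gives about 4.3. For Col6a1, old replicate 4 was low at 52.9 CPM, while the remaining old brains had 81.4 to 85.9 CPM (gap over range 0.888). For Col9a1, old replicate 4 was low at 0.219 CPM against 0.704 to 0.85 CPM (0.846). For Col6a6, old replicate 3 was high at 1.97 CPM against 0.744 to 0.88 CPM (0.834). For Col6a5, young replicate 5 was high at 2.66 CPM against 1.26 to 1.51 CPM (0.757). Of these 4, only Col6a1 gained a call when the library was left out.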

How the results depend on the processing

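Of 357 values (17 collagen genes under 21 alternatives), 315 kept their side of the threshold, 36 lost the call, 6 gained it, no called gene changed sign, and 32 of the values of uncalled genes did. Col3a1 kept its call in all 21 alternatives, and Col15a1 and Col26a1 lost theirs only on the TPM scales. The count of lower collagen genes was 6, and 1 on log2(TPM + 1) and on log2(TPM + 0.1), 5 without the robust option and 8 with every gene that had a count. The count of higher ones was 1, and 0 on both TPM scales, 2 without the robust option (added after the data were seen), 2 on normalized counts, 2 at a minimum of 1 CPM in 4 samples, 3 with DESeq2's Wald test and 3 with every gene that had a count. The count past both thresholds was 1, and 0 on log2(TPM + 1), and 2 without the robust option, with DESeq2's Wald test, on normalized counts and at 1 CPM. Over all genes, calls in either direction numbered 2031 in the main fit, 594 on log2(TPM + 1) and 600 on log2(TPM + 0.1). They numbered 2039 without the robust option and 2802 with every gene that had a count. The TPM scales moved the median log2 fold change of all genes to -0.14 and -0.16. On them, the fibrillar median of 0.01 became -0.18 and -0.23 and that of basement membrane genes -0.11 and -0.12, and the median of the other collagens became -0.17 on log2(TPM + 0.1).

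With 1 brain left out, lower genes numbered 3 to 7, higher genes 0 to 3 and those past both thresholds 1 to 3. The lowest count of lower genes came without young replicate 3. No gene was called higher without young replicate 3, 4 or 5 or old replicate 1 or 3, in each case because Col6a2 lost its call. Without old replicate 4, 3 genes (Col1a1, Col3a1 and Col6a1) passed both thresholds. The medians ranged from -0.16 (without old replicate 4) to 0.0306 for fibrillar, 0.0035 to 0.07 for basement membrane and -0.05 to 0.02 for other collagens. Over all genes, calls in these fits ranged from 1516 (without old replicate 5) to 2034 (without young replicate 4).

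Correlations of deviations between young and old brains of the same replicate number were 0.17, -0.12, 0.09 and -0.02. Different numbers gave -0.10 to 0.10. With 4 such pairs and no test, this cannot settle whether the numbers pair the brains. With the replicate block, 6 collagen genes were lower, 1 higher and 1 past both thresholds, with Col11a1 called in place of Col25a1. Spread between brains limits some genes, and Col6a4 (SE 0.60 on the log2 scale) varied from 1.11 to 9.20 CPM among the young brains alone.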
